A study of Homo sapiens with 9 samples.

Results

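Antisense RNAs are transcripts read from the DNA strand opposite a known gene, and by convention each is named for that gene with the ending AS, so RAB4A-AS1 lies across from RAB4A. The deposited count table held 1865 entries with such a name among 56312, and the 101 described here were those with a mean of at least 5 CPM (the count divided by the library's total and multiplied by 1000000) over the 3 vehicle libraries. They were chosen by their DMSO level, which is therefore given as a description, with no test. All 101 passed the expression filter, with at least 112 counts in every library.

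The libraries were RNA-seq of HNES1, a single wild-type line of human naive pluripotent stem cells derived from an embryo, collected on day 5 of the transition towards a primed-like state. Each of the 3 groups had 3 libraries: vehicle (DMSO), UNC6852 at 2.5 µM (group PROTAC), a degrader that recruits the ubiquitin ligase VHL to EED, a core subunit of PRC2, and UNC1999 at 1 µM (group UNC), an inhibitor of the PRC2 enzymes EZH2 and EZH1. In all groups the compound or vehicle was added 24 h before the naive medium PXGL was withdrawn and was renewed daily in N2B27 with the tankyrase inhibitor XAV939. The cells had been kept on mouse feeders and were plated on Geltrex for the experiment, and the series describes 3 independent runs of it.

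Polycomb repressive complex 2 (PRC2) places methyl groups on lysine 27 of histone H3, a mark of silenced genes. Antisense RNAs arise in several ways: from the upstream side of a promoter shared with the sense gene, from a start inside the sense gene, or from a neighbouring unit whose end runs into it. Some act on their sense gene, some act elsewhere in the cell, and for most no function is known. Few are translated, and their levels are usually far below those of mRNA.

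Library totals ranged from 31651742 to 101081643 counts. The 8 general pluripotency markers summed to between 4135 and 4691 CPM in the 9 libraries, with the 7 found in the table at or above 1 CPM throughout, and the 8 naive markers summed to between 1470 and 1706 CPM. The 8 primed markers summed to 399 to 584 CPM and the 3 neural markers to 0.263 to 0.927 CPM. Of 6 fibroblast markers LUM was at 0 in every library and COL3A1 and DCN stayed under 0.05 CPM, while COL1A1, COL1A2 and THY1 made up the summed 360 to 484 CPM. Trophoblast markers summed to 20.7 to 48.8 CPM in DMSO, 15.8 to 45.0 CPM in PROTAC and 11.2 to 27.2 CPM in UNC, with none of the 7 at 0.

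Antisense RNAs at this level were a small, uneven share of the transcriptome. Together the 101 took 0.206%, 0.183% and 0.184% of counts in DMSO 1 to 3, 0.181%, 0.184% and 0.187% in PROTAC and 0.198%, 0.180% and 0.179% in UNC. The groups overlapped, at 0.191% ± 0.0131, 0.184% ± 0.00301 and 0.186% ± 0.0108 (SD, n = 3). Levels fell away steeply: 345 of the 1865 entries reached 1 CPM in DMSO, 216 reached 2 CPM, 53 reached 10 CPM and 5 reached 50 CPM, while 460 had no count in any library. The median of the 101 was 10.3 CPM. Just inside the threshold lay PNISR-AS1 (5.18 CPM), KTN1-AS1 (5.17 CPM) and LBX2-AS1 (5.17 CPM), and just outside it C5orf34-AS1 (4.98 CPM), PUS1-AS1 (4.95 CPM) and ZNF385D-AS1 (4.90 CPM).

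OIP5-AS1, also known as Cyrano, is a conserved RNA that binds microRNAs and RNA-binding proteins in other cells, and it stood far above the rest. Its levels were 321, 339 and 315 CPM in DMSO, 337, 361 and 359 CPM in PROTAC and 351, 370 and 334 CPM in UNC, or 17.0% of the counts of the 101 in DMSO. It lies on chr15:41283958-41322392, and an entry without a symbol on the same strand (ENSG00000285920, 181 ± 10.2 CPM in DMSO) shares 327 bp of its exons, so part of its counts may be held in common. THAP9-AS1, across from the transposase-derived gene THAP9, followed at 120, 131 and 117 CPM in DMSO, with 10.96% of its exon length on the same strand as exons of SEC31A, a coat protein of vesicles leaving the endoplasmic reticulum. The other 6 of the 8 highest in DMSO were EPB41L4A-AS1 (69.7 ± 1.91 CPM), CMKLR2-AS (60.2 ± 3.52 CPM), FGD5-AS1 (54.7 ± 6.36 CPM), PAX8-AS1 (40.7 ± 5.41 CPM), GABPB1-AS1 (38.3 ± 11.2 CPM) and FOXD3-AS1 (36.3 ± 1.95 CPM). In this order the DMSO libraries of CMKLR2-AS and FGD5-AS1 overlapped, as did those of PAX8-AS1, GABPB1-AS1 and FOXD3-AS1, and the other neighbours did not.

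Level against the sense gene varied from pair to pair. Per kb of exon, which allows different genes to be compared, the antisense RNA was above its sense gene in 51 of 95 pairs and below it in 44, and the order was the same in all 9 libraries for 45 and 43 pairs. The median ratio of antisense to sense level per kb was 1.15 in DMSO. Exons were known for both genes in 98 pairs, but no ratio was taken where the sense gene had 0 CPM in DMSO. NUTM2A and OR2A1 were such genes. In these pairs the antisense RNA was the higher, so the count above and the median leave them out. Exon lengths were those of GENCODE 29, in which 14 of 99 antisense RNAs had the same span as in the deposited table, so levels per kb and shares of exons rest on gene models that may differ from those counted. At the low end TPT1-AS1 stood at 1.71 CPM per kb beside 150.1 for TPT1, the translationally controlled tumour protein, and SLC16A1-AS1 at 1.03 beside 52.9 for the lactate transporter SLC16A1. At the other end were antisense RNAs whose sense gene was close to silent: 15 sense genes were under 1 CPM in DMSO. CMKLR2-AS had 60.2 CPM while CMKLR2, a chemerin receptor, had 0.0329 ± 0.0161 CPM, and GP6-AS1 had 22.5 ± 7.13 CPM beside 0.175 ± 0.0308 CPM for the platelet collagen receptor GP6. EPB41L4A-AS1 lies wholly inside EPB41L4A and reached 20.8 CPM per kb beside 0.652 for that gene.

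**Figure D1:**
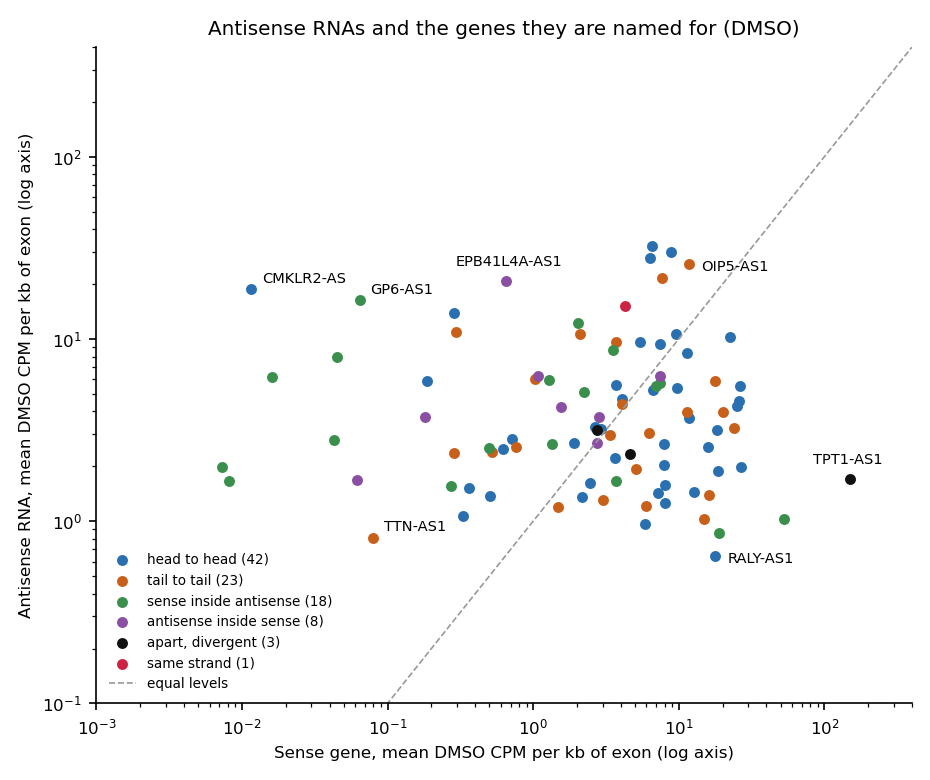
Mean DMSO level of each antisense RNA (vertical) against the gene it is named for (horizontal), both in CPM per kb of exon on log axes, for the 95 pairs with both values; colours give the arrangement, with the number of pairs, and the dashed line marks equal levels. The pairs lie on both sides of the line, 51 above and 44 below, with CMKLR2-AS and GP6-AS1 far above it and TPT1-AS1 far below. Pairs whose sense gene had 0 CPM in DMSO are not drawn.

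In arrangement, 42 antisense RNAs began within the span of their sense gene and ran out past its start (head to head), 23 met it end to end (tail to tail), 23 contained the whole sense gene, 8 lay inside it, and 3 stood apart and divergent. FAM131B-AS2 lay on the same strand as FAM131B in the deposited coordinates, and HOXB-AS1 has no sense gene of its name. Starts lay within 1000 bp of each other on opposite strands in 24 pairs. Antisense RNAs that contained the sense gene had a median level per kb of 4.85 times that of the sense gene over 18 of the 23 pairs. The rest had no ratio, some because the sense gene had 0 CPM in DMSO, so this median leaves out pairs with a silent sense gene. The 8 that lay inside the sense gene had a median of 4.30. The medians were 0.702 for the 42 head to head pairs and 0.883 for the 23 tail to tail pairs, and the ranges overlapped widely.

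Because overlapping genes can share reads, the counts were checked for strand. The check took genes with at least 90% of their exon length under exons of a single other gene, itself at 20 CPM per kb or more. On the opposite strand 64 could be examined in DMSO. Their level per kb was a median of 0.00179 of the covering gene's, with quartiles of 0.000687 and 0.00585 and a highest value of 0.0555. For 9 genes covered on the same strand the median was 1.31, with a lowest of 0.166. Counts thus differed by strand: genes under an opposite-strand gene held a small share of its level. Genes covered on the same strand lay between 0.166 and 4.13 times the level of the covering gene. For the 99 antisense RNAs with exons in GENCODE 29 (all but PCBP1-AS1 and PM20D1-AS1), exons of all opposite-strand genes, the sense gene included, could account at the median ratio for at most 0.517% of DMSO counts. At the highest ratio they could account for over 10% in 4, TMPO-AS1 (15.98%), MCM3AP-AS1 (15.2%), MPDU1-AS1 (11.7%) and GNAS-AS1 (10.1%).

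Overlap on the same strand was examined next. The table placed another entry on the same strand within the span of 36 of the 101, at 1 CPM or more in DMSO for 22 and at or above the antisense RNA's own level for 7. These 7 were THAP9-AS1 (SEC31A, 188 CPM), FOXD3-AS1 (ITGB3BP, 46.5 CPM), PINK1-AS (DDOST, 229 CPM), ASH1L-AS1 (MSTO1, 37.7 CPM), LIPT2-AS1 (POLD3, 39.96 CPM), GASK1B-AS1 (TMEM144, 14.1 CPM) and SPEN-AS1 (UQCRHL, 15.5 CPM). For PINK1-AS, at 26.2 ± 1.60 CPM in DMSO, the exons shared with DDOST, a subunit of the oligosaccharyltransferase, would carry 35.98 CPM at DDOST's mean density. For FOXD3-AS1, ASH1L-AS1 and SPEN-AS1 only the spans overlapped and no exon was shared in GENCODE 29. The level of PINK1-AS can therefore not be told apart from that of DDOST.

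**Figure D2:**
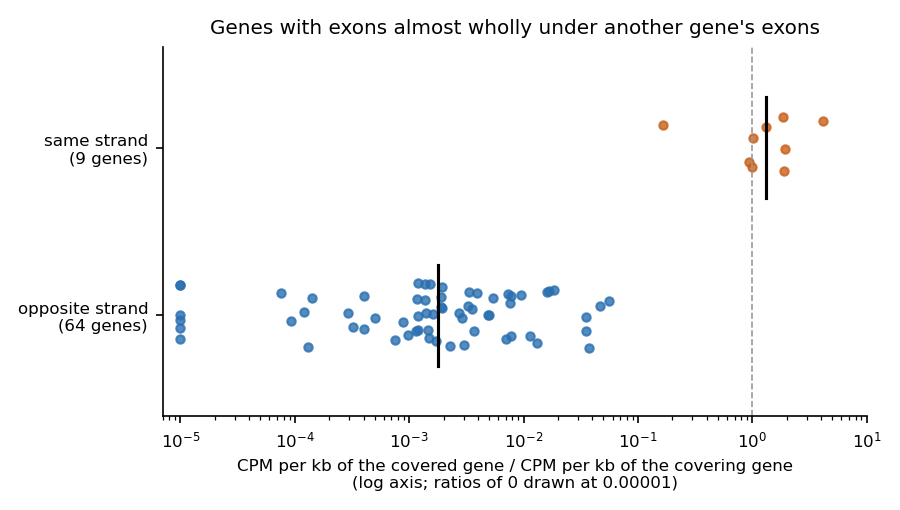
Level per kb of genes whose exons lie at least 90% under another gene's exons, divided by the level per kb of that covering gene in DMSO (log axis), for covering genes on the opposite strand (64 genes) and on the same strand (9 genes); each point is a gene, the black bar is the median and the dashed line marks equal levels. Genes covered on the opposite strand had a median ratio of 0.00179 and those covered on the same strand 1.31.

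RefSeq promoter windows (GRCh38.p14, from 250 bases before the annotated start to 50 after it) were found for 84 of the 101. For 62 of them the RefSeq start lay within 1000 bp of the start in the deposited coordinates, so the other windows may not belong to the transcript counted. The 84 windows held a median of 24 CG dinucleotides per 300 bases, against 14 over all 35116 windows in the table and 9 over 1643 windows of other antisense genes. At least 10 CG were present in 78.6% of the 84, 56.4% of all windows and 48.1% of the other antisense windows. Among the antisense RNAs described below as passing the paired test, 13 had a window and 6 of these held at least 10 CG, compared with 60 of 71 windows of the others. With the windows starting within 1000 bp alone, these were 6 of 11 and 45 of 51. This split was noticed after the calls were known and was not tested. Windows are printed for 3 of the 5 RNAs that fell with both compounds (PHKA2-AS1, GP6-AS1, SLC25A25-AS1), for TMEM147-AS1, a CG-richer window of an RNA that fell with UNC1999, and for HDAC2-AS2, which rose with UNC1999. CG dinucleotides, the bases on which DNA methylation acts, are in capitals.
PHKA2-AS1: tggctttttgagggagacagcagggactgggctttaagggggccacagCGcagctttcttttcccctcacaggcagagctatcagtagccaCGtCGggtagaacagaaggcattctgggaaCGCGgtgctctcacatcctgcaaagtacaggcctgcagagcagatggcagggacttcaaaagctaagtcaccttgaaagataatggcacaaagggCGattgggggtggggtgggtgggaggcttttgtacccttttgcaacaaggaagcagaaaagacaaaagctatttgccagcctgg
GP6-AS1: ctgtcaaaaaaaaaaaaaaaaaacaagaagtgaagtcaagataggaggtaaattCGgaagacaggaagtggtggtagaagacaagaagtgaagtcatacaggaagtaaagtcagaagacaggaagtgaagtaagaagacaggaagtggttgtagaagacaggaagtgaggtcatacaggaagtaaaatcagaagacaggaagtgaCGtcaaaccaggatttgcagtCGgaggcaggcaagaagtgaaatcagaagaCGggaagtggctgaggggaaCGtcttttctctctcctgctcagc
SLC25A25-AS1: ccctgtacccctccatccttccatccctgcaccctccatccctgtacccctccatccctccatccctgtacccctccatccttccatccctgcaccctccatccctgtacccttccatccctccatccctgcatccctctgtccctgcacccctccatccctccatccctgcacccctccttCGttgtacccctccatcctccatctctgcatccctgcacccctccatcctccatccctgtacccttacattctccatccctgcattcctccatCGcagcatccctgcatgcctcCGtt
TMEM147-AS1: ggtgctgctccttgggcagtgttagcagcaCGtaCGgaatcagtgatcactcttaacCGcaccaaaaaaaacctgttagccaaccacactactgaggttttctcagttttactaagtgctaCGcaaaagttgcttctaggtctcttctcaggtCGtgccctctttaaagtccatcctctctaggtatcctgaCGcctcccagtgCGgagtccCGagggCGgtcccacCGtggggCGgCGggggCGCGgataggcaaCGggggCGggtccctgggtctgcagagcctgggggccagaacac
HDAC2-AS2: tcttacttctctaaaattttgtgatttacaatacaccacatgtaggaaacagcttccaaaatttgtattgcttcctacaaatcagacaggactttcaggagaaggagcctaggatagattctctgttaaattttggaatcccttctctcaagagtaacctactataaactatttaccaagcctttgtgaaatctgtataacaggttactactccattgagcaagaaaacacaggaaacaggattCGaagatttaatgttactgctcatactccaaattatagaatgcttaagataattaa
These are chrX:18890046-18890345 (plus strand, 6 CG), chr19:55005977-55006276 (plus, 5 CG), chr9:128118685-128118984 (minus, 3 CG), chr19:35545980-35546279 (minus, 16 CG) and chr6:113969451-113969750 (plus, 1 CG). At least 6 CG were found in 66.3% of all windows, so the first 3 and the last lay among the CG-poorer ones, and at least 16 CG in 47.5%. The window of RAB4A-AS1 (chr1:229271105-229271404, minus strand) held 44 CG, matched or exceeded in 4.19% of all windows, and contained the RefSeq start of RAB4A, 43 bp from its own.

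UNC6852 against DMSO asks how loss of EED changes these RNAs. PHKA2-AS1, across from a regulatory subunit of the liver form of phosphorylase kinase, had the largest difference: 10.4, 8.29 and 8.09 CPM in DMSO, 5.44, 4.90 and 4.23 CPM in PROTAC and 5.80, 5.75 and 7.49 CPM in UNC. All PROTAC libraries lay below all DMSO libraries, and UNC lay between. By edgeR's quasi-likelihood test with group alone, its log2 fold change in PROTAC was -0.84 (SE 0.15, adjusted p = 0.328). That fit called 0 of the 101 higher or lower, with 0% of all 24187 genes tested called in either direction. At an unadjusted p under 0.05 there were 0 higher and 8 lower, beside 697 and 503 of all 24187 genes. PHKA2-AS1 alone was called lower by DESeq2 (adjusted p = 0.000791) and by edgeR by group alone without the expression filter (adjusted p = 0.000160). Shares of all genes called under these settings are not given here.

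Libraries of the same number deviated together, so the number was also used as a block, called the paired fit here. In it 0 of the 101 rose (2.01% of all genes tested rose) and 5 fell (0.984% of all genes fell). All genes tested include ones at lower levels, and genes matched on level were not compared. Among the 679 tested antisense entries under the threshold 0.295% fell. The paired log2 fold change of PHKA2-AS1 was -0.83 (SE 0.12, adjusted p = 0.000101), and its call held with each number left out in turn, at -0.90 to -0.80. Exons of PHKA2 cover 64.2% of the exon length of PHKA2-AS1 on the opposite strand. PHKA2 itself was at 33.3 ± 2.12, 31.8 ± 2.16 and 31.5 ± 2.94 CPM, a paired log2 fold change of -0.04 in PROTAC (SE 0.06, adjusted p = 0.814). Even at the highest opposite-strand ratio, PHKA2 reads could make up 1.37% of the antisense count in DMSO.

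The other 4 fell by less. GP6-AS1 had 30.7, 19.2 and 17.6 CPM in DMSO, 18.8, 16.6 and 14.2 CPM in PROTAC and 20.2, 16.4 and 15.9 CPM in UNC. DMSO 1 was the highest library by a wide margin, the groups overlapped, and the paired log2 fold change of -0.40 (adjusted p = 0.00588) was -0.23 (adjusted p = 0.141) without number 1. SLC25A25-AS1, across from a mitochondrial ATP-Mg/phosphate carrier, had 8.23, 6.49 and 8.40 CPM in DMSO and 6.61, 4.78 and 5.97 CPM in PROTAC. Its paired log2 fold change was -0.38 (adjusted p = 0.0335), with adjusted p of 0.195 without number 2 and 0.260 without number 3. RUNDC3A-AS1, across from a RUN domain gene best known in neurons, had 17.7, 13.1 and 14.9 CPM in DMSO and 11.04, 12.5 and 11.4 CPM in PROTAC, with no overlap.

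RUNDC3A-AS1 fell by 0.35 on the paired log2 scale (adjusted p = 0.0303), and by 0.19 (adjusted p = 0.354) without number 1; without number 3 the adjusted p was 0.214. ZNF528-AS1 and ZNF528, a zinc finger gene, are divergent from starts 42 bp apart in the deposited coordinates, and both fell. The antisense RNA had 15.1, 11.2 and 13.1 CPM in DMSO and 11.3, 8.90 and 10.5 CPM in PROTAC, and the sense gene 28.3, 18.8 and 23.0 CPM against 22.8, 16.6 and 18.3 CPM. Within each number PROTAC was the lower for both genes, although the groups overlapped. The paired log2 fold changes were -0.34 (adjusted p = 0.0187) and -0.25 (adjusted p = 0.0438). Leaving out number 1, 2 or 3 gave ZNF528-AS1 adjusted p of 0.0791, 0.144 and 0.113.

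As a whole the 101 lay slightly below 0: the median paired log2 fold change was -0.09 in PROTAC, with 78 negative and 23 positive. The median over all genes tested was -0.01. The 679 tested antisense entries under the threshold had a paired median of -0.10, and the 421 tested divergent transcripts, whose names end in DT, -0.10. Values within 0.2 of 0 were found for 77 of the 101. Libraries did not overlap for 9 lower and 0 higher, beside 6.25% lower and 4.75% higher among all genes tested.

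UNC1999 against DMSO asks the same of blocked EZH2 and EZH1 catalysis, with the same 3 DMSO libraries. By group alone edgeR called 0 of the 101 (0.318% of all genes rose and 0.401% fell). At an unadjusted p under 0.05 it had 2 higher and 8 lower, beside 1480 and 1521 of all 24187 genes. DESeq2, and edgeR without the expression filter, each called 3 lower, MACC1-AS1, RAB4A-AS1 and RUNDC3A-AS1, with adjusted p by DESeq2 of 0.00467, 0.0276 and 0.0378. Shares of all genes called under these settings are not given here, so the counts cannot be set against them. The lowest adjusted p by edgeR was 0.0820, for MACC1-AS1. In the paired fit 3 rose (7.04% of all genes) and 12 fell (6.46% of all genes), all in the same direction within each of the 3 numbers, as a paired call favours. The shares of the 101 were 2.97% and 11.9%. All genes tested include ones at lower levels, and genes matched on level were not compared. Among the 679 tested antisense entries under the threshold, 1.18% rose and 2.06% fell in this fit. The summed trophoblast markers ranged as given above, overlapping between groups. The 4 mesoderm markers summed to 6.78 to 10.1 CPM in DMSO, 3.79 to 8.15 CPM in PROTAC and 2.84 to 4.72 CPM in UNC, with UNC below DMSO. In that list TBXT had means of 5.56, 3.36 and 1.63 CPM and MESP1, at 0 in some libraries, 0.0670, 0.106 and 0.120 CPM. In the fibroblast list, summing to 430 to 484, 423 to 463 and 360 to 432 CPM, COL1A1 had means of 88.2, 67.8 and 44.4 CPM and THY1 190.3, 202 and 208 CPM. None of these differences was tested. Their part in these values was not tested. In bulk libraries fewer cells of a type and less RNA per cell cannot be told apart.

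MACC1-AS1 is named for an activator of the receptor gene MET, and fell most. It had 7.69, 5.90 and 7.37 CPM in DMSO, 4.89, 4.87 and 6.29 CPM in PROTAC and 4.71, 3.23 and 4.73 CPM in UNC, every UNC library below every DMSO library. The paired log2 fold change was -0.69 (SE 0.11, adjusted p = 2.84e-05), and -0.73 to -0.66 with each number left out. Its DMSO libraries also chose it: its mean was 6.99 CPM in DMSO but 4.79 CPM over the 6 treated libraries, so it would not be a member by the treated level, and 11 rather than 12 members then fell. An entry without a symbol on the same strand (ENSG00000267055, 1.33 ± 0.312 CPM in DMSO and 0.782 ± 0.241 CPM in UNC) fell too, by 0.74 (adjusted p = 0.0205), and reads common to both cannot be told apart. MACC1 was at 2.92 ± 0.416 and 2.21 ± 0.467 CPM, a paired log2 fold change of -0.38 (adjusted p = 0.0884).

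RAB4A-AS1 was the clearest case of a pair going opposite ways. It runs away from RAB4A, a small GTPase of endosome recycling, from a start 180 bp inside it (chr1:229256892-229271242, minus strand), and shares no exon with it in GENCODE 29. The antisense RNA had 13.3, 10.4 and 13.1 CPM in DMSO, 11.2, 8.31 and 10.4 CPM in PROTAC and 10.2, 7.26 and 7.74 CPM in UNC. RAB4A had 29.3, 36.3 and 29.6 CPM in DMSO and 32.8, 39.9 and 33.1 CPM in UNC, higher within each number although the groups overlapped. The antisense RNA fell by 0.52 (SE 0.09, adjusted p = 6.27e-05) and the sense gene rose by 0.18 (SE 0.06, adjusted p = 0.0384) in the paired fit. The fall of RAB4A-AS1 held without any 1 number, at -0.61 to -0.41.

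PHKA2-AS1, described above, fell by 0.46 in UNC (SE 0.12, adjusted p = 0.00710), with no overlap with DMSO; without number 1 it was -0.25 (adjusted p = 0.179) and without number 2 the adjusted p was 0.115. RUNDC3A-AS1 had 13.0, 9.44 and 10.5 CPM in UNC, all below its DMSO libraries, and fell by 0.44 (adjusted p = 0.00117), or 0.42 to 0.46 with each number left out. DNAH17-AS1 lies inside DNAH17, an axonemal dynein heavy chain that itself was at 1.00 ± 0.0598 CPM in DMSO. It had 9.58, 7.99 and 10.3 CPM in DMSO and 7.04, 5.11 and 8.06 CPM in UNC, overlapping, and fell by 0.44 (adjusted p = 0.00122; 0.0614 without number 2).

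Smaller falls came next. ZNF528-AS1 fell by 0.33 (adjusted p = 0.00604; 0.122 without number 2), while ZNF528 was at -0.18 (adjusted p = 0.0891). GP6-AS1 fell by 0.31 (adjusted p = 0.0105), but by 0.14 (adjusted p = 0.307) without number 1, where DMSO 1 stood out. SLC9A3-AS1, inside the sodium/hydrogen exchanger gene SLC9A3, had 18.1, 14.8 and 15.2 CPM in DMSO and 14.3, 11.4 and 13.1 CPM in UNC without overlap, and fell by 0.28 (adjusted p = 0.0158; 0.178 without number 2). SLC25A25-AS1 (-0.30, adjusted p = 0.0458), SLFNL1-AS1 (-0.29, adjusted p = 0.0471), PRKCQ-AS1 (-0.28, adjusted p = 0.0490) and TMEM147-AS1 (-0.22, adjusted p = 0.0359) passed narrowly and overlapped DMSO. Of these 5, SLC25A25-AS1 was the last of the 8 largest falls, and SLC9A3-AS1, SLFNL1-AS1, PRKCQ-AS1 and TMEM147-AS1 are named beyond those 8, after their values were seen. In the order SLC25A25-AS1, SLFNL1-AS1, PRKCQ-AS1 and TMEM147-AS1, the adjusted p values without number 2 were 0.0802, 0.510, 0.421 and 0.257. Those without number 3 were 0.382, 0.0940, 0.190 and 0.0624. Without number 1 they were 0.0964, 0.0168, 0.0166 and 0.0888.

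The 3 that rose were HOXB-AS1, HDAC2-AS2 and OIP5-AS1. HOXB-AS1 runs opposite the homeobox genes HOXB2 and HOXB3 (chr17:48543002-48554788, plus strand). It had 10.5, 10.0 and 12.5 CPM in DMSO, 9.97, 11.7 and 14.3 CPM in PROTAC and 12.1, 13.9 and 15.2 CPM in UNC. The groups overlapped, number 3 was the highest in each, and it rose by 0.35 in UNC (adjusted p = 0.00366; 0.199 without number 2). HOXB2 had 15.8, 19.7 and 21.6 CPM in DMSO and 24.0, 29.9 and 35.7 CPM in UNC, without overlap and with number 3 again the highest, and rose by 0.67 (SE 0.07, adjusted p = 2.13e-09). In PROTAC HOXB2 rose by 0.28 (adjusted p = 0.0143), and HOXB-AS1 was at 0.14 (adjusted p = 0.466).

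HDAC2-AS2 and the histone deacetylase gene HDAC2 rose together. The antisense RNA had 19.5, 15.5 and 14.3 CPM in DMSO, 18.7, 18.5 and 17.4 CPM in PROTAC and 20.6, 19.9 and 19.2 CPM in UNC; UNC lay above PROTAC in every library, and UNC 2 and 3 differed from DMSO 1 by little. HDAC2 had 125, 121 and 119 CPM in DMSO and 149, 139 and 129 CPM in UNC, without overlap. The paired log2 fold changes were 0.31 (SE 0.08, adjusted p = 0.00456) and 0.22 (SE 0.05, adjusted p = 0.00232). For HDAC2-AS2 the adjusted p was 0.179 without number 2 and 0.104 without number 3. OIP5-AS1 rose by 0.14 (SE 0.05, adjusted p = 0.0489), with adjusted p of 0.0725, 0.335 and 0.125 without numbers 1, 2 and 3 and 0.115 when scaled by library size alone. The entry that shares its exons, ENSG00000285920, was at 0.06 (adjusted p = 0.514).

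**Figure D3:**
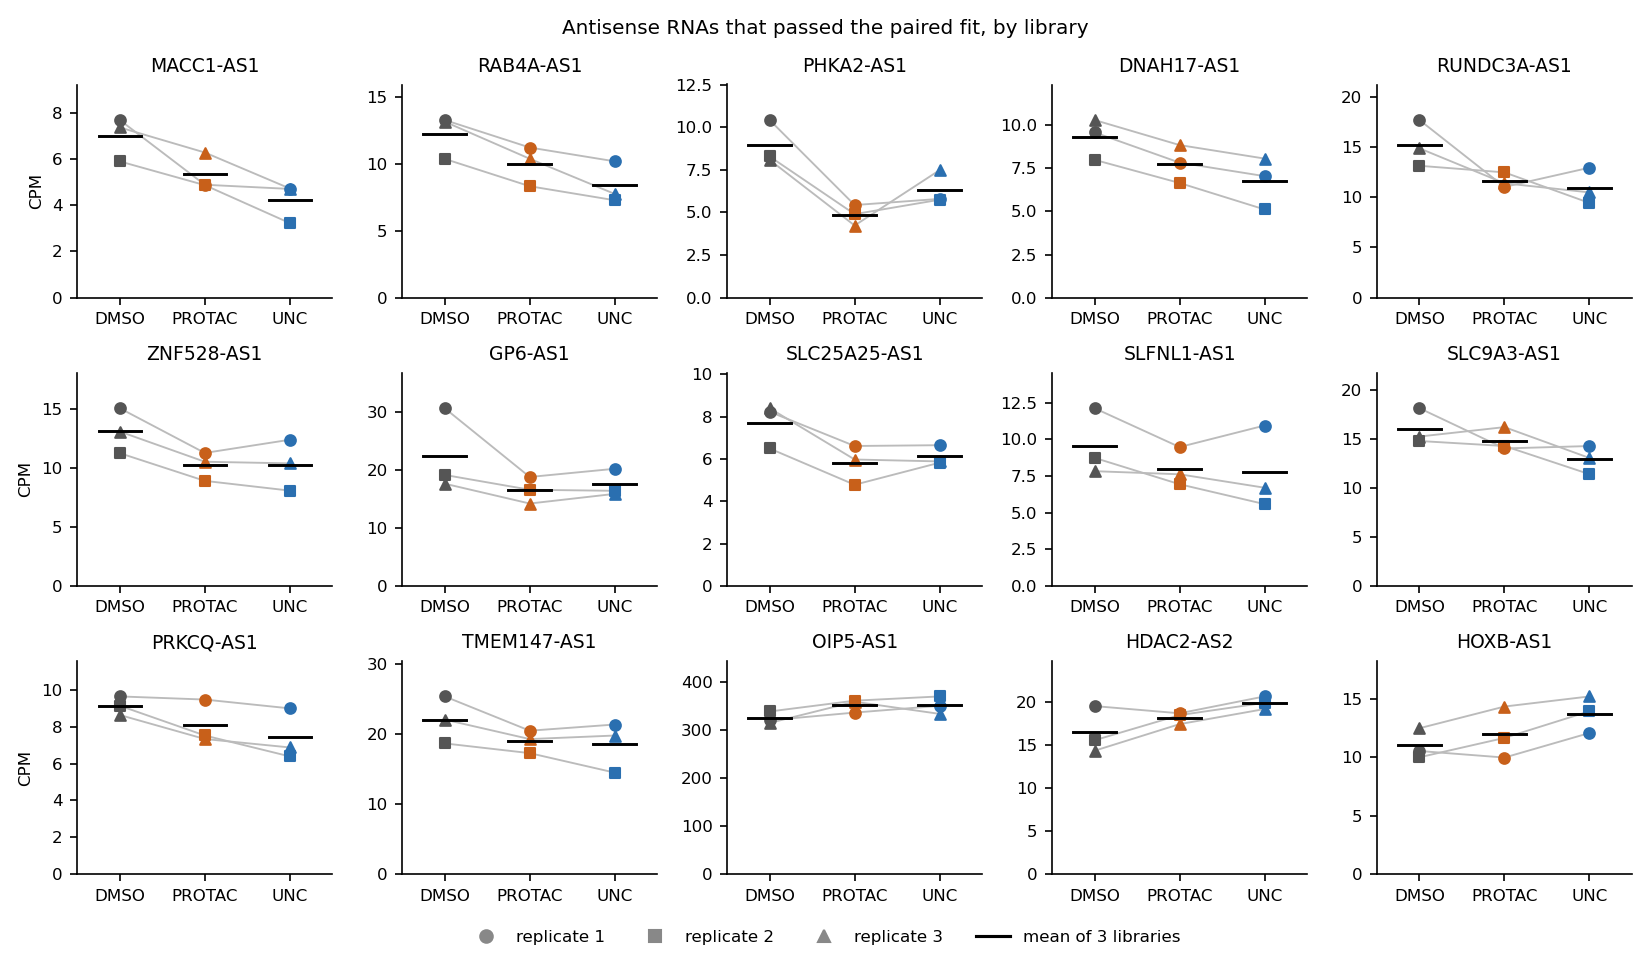
CPM in each library for the 15 antisense RNAs that passed the paired fit in at least 1 comparison with DMSO, ordered by their change in UNC; each panel starts at 0, grey lines join libraries of the same number, symbols give the number and black bars the mean of 3 libraries. PHKA2-AS1 drops from 8.09 or more in DMSO to 5.44 or less in PROTAC, and the libraries of a number mostly keep their order from group to group.

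The 101 had a median paired log2 fold change of -0.08 in UNC, 71 negative and 30 positive, beside -0.08 for antisense entries under the threshold and -0.07 for the divergent transcripts. In UNC 15 did not overlap DMSO and were lower and 0 were higher, beside 10.6% and 7.11% of all genes tested. All 5 that fell in PROTAC were among the 12 that fell in UNC; both counts rest on the same DMSO libraries. Scaled by library size alone, the paired fit gave 7 lower in PROTAC and 2 higher and 15 lower in UNC, and the share of all genes called under that scaling is not given here.

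**Figure D4:**
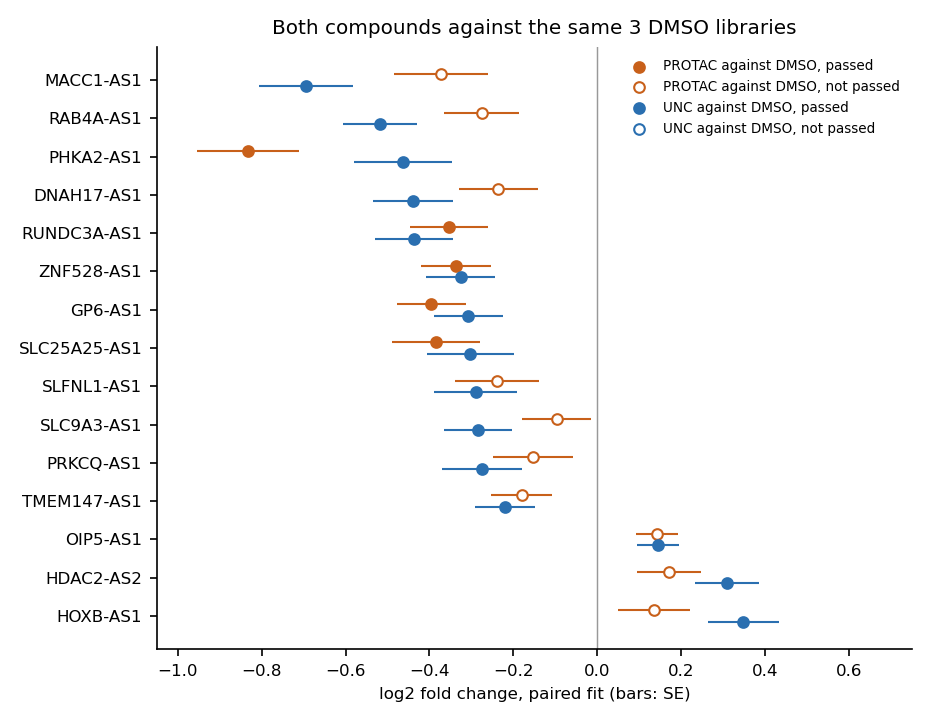
Paired log2 fold changes against the same 3 DMSO libraries for the 15 antisense RNAs that passed in at least 1 comparison, PROTAC in orange and UNC in blue, with bars for the standard error; filled points passed at an adjusted p under 0.05 and open points did not. All 5 that passed in PROTAC lie to the left of 0, and of the 15 in UNC 12 lie to the left and 3 to the right.

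PROTAC and UNC were also compared directly, with the DMSO libraries that chose the members on neither side. The filter, scaling, spread and block still came from all 9 libraries. None of the 101 passed in either fit, and edgeR by group alone on only the 6 libraries compared called 0. The libraries did not overlap for 3 higher and 4 lower in PROTAC, beside 5.35% and 3.58% of all genes tested. By group alone edgeR called 0 (0.00827% of all genes were higher in PROTAC and 0% lower), and DESeq2 called 0. At an unadjusted p under 0.05 edgeR had 1 higher and 1 lower, beside 789 and 348 of all 24187 genes. The paired fit also called 0 (2.17% and 0.74% of all genes). It had 8 higher and 3 lower at an unadjusted p under 0.05, beside 1839 and 1312 of all 24187 genes. PHKA2-AS1 had the largest difference, 0.37 lower in PROTAC than in UNC on the paired log2 scale (SE 0.12, adjusted p = 0.118), with no overlap between the groups. MACC1-AS1 was at 0.32 (SE 0.12, adjusted p = 0.157) and RAB4A-AS1 at 0.24 (SE 0.09, adjusted p = 0.178). Without number 1 the paired fit called 3 higher in PROTAC, MACC1-AS1, FAM131B-AS2 and SNAI3-AS1, and PHKA2-AS1 lower. The share of all genes called without number 1 is not given here.

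Few pairs had both genes called. Over the 91 pairs with both genes tested, signs were the same in 46 in PROTAC and 56 in UNC (paired fit), and across genes, which are not independent replicates and share their libraries, Pearson's r was -0.05 and 0.21. For the 41 head to head pairs r was -0.05 and 0.18. In UNC both genes were called in 2 pairs, RAB4A and HDAC2, only the antisense in 11 and only the sense gene in 13. The sense genes called in UNC were 9 higher (9.89% of 91, beside 7.04% of all genes) and 6 lower (6.59%, beside 6.46%). Among the higher were KTN1 (0.23), a kinesin-binding protein of the endoplasmic reticulum, TMPO (0.21), a nuclear envelope protein, GNAS (0.20), an imprinted G protein gene, and THAP9 (0.22), and among the lower FAM131B (-0.49).

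The count ratio of antisense to sense, in which library size cancels, was tested with limma. By group alone 0 of 91 ratios passed in any comparison, with a lowest adjusted p of 0.0945, beside 0% of the 716 pairs tested. Paired, 0 passed in PROTAC (0% of 716), 3 in UNC (0.838%) and 1 in PROTAC against UNC (0.279%). TTN-AS1 had the largest change in the ratio, and of the pair it was the sense gene that passed the test. TTN, the muscle protein titin, had 14.1, 6.94 and 7.49 CPM in DMSO, 11.9, 4.38 and 7.68 CPM in PROTAC and 6.55, 2.30 and 2.37 CPM in UNC. TTN-AS1 had 20.04, 14.8 and 15.5 CPM in DMSO, 17.5, 14.4 and 16.9 CPM in PROTAC and 23.5, 12.6 and 14.2 CPM in UNC. All UNC libraries of TTN lay below all DMSO libraries, while those of TTN-AS1 overlapped.

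In the paired fit TTN fell by 1.39 in UNC (SE 0.13, adjusted p = 3.24e-08) and TTN-AS1 was at 0.01 (SE 0.09, adjusted p = 0.974), although 55.1% of the exons of TTN-AS1 lie under exons of TTN. The log2 ratio changed by 1.41 (limma, adjusted p = 4.91e-05), and by 1.34 to 1.44 with each number left out. Against PROTAC, TTN was 1.11 higher in PROTAC than in UNC (adjusted p = 4.25e-06) and the ratio 1.16 lower (adjusted p = 0.000521; 0.0609 without number 1). FGD5-AS1 likewise stayed near 0 (-0.02, SE 0.05) while FGD5, a guanine nucleotide exchange factor, fell by 0.53 (adjusted p = 6.02e-06), from 19.4, 16.7 and 15.1 CPM in DMSO to 14.4, 10.6 and 10.0 CPM in UNC. Its ratio changed by 0.51 (limma, adjusted p = 0.0130; 0.367 without number 2 and 0.0900 without number 3). For RAB4A-AS1 the ratio changed by -0.70 (limma, adjusted p = 0.00814; 0.190 without number 2 and 0.0579 without number 3).

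**Figure D5:**
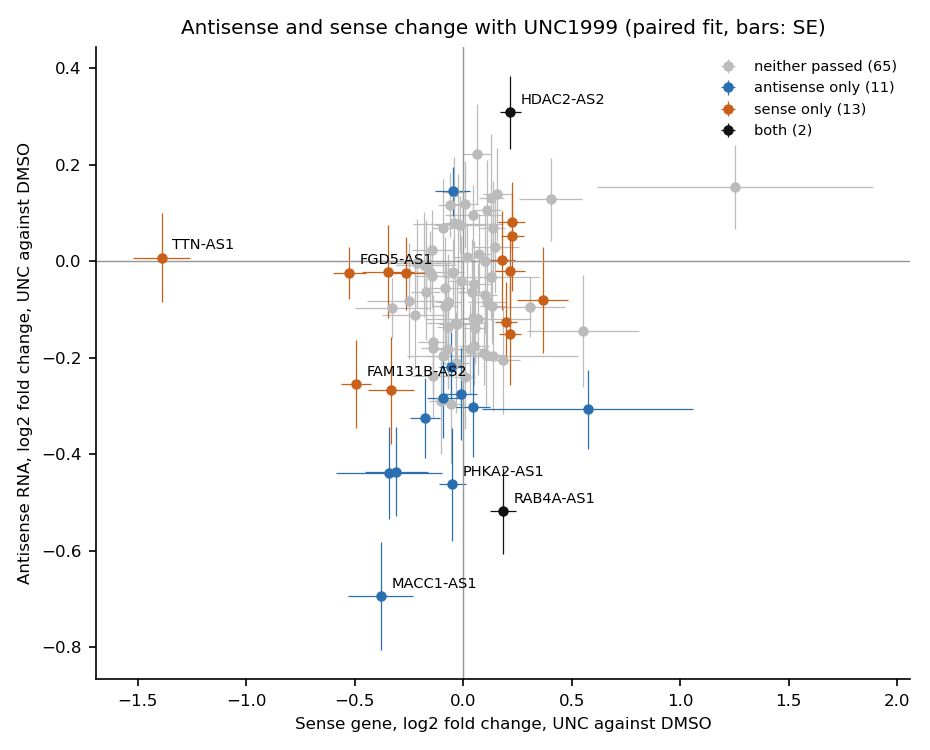
Paired log2 fold change in UNC against DMSO of each antisense RNA (vertical) and its sense gene (horizontal) for the 91 pairs with both tested, with bars for the standard error; colours show which of the pair passed at an adjusted p under 0.05, with counts. TTN-AS1 lies at the far left near the horizontal line, with the sense gene at -1.39 and the antisense RNA at 0.01, and RAB4A-AS1 lies at lower right.

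By group of function, 14 of the 24 listed antisense RNAs studied elsewhere for binding microRNAs or proteins or for effects on growth were among the 101, and 19 were tested. By group alone this list and the 3 that follow had 0 calls in either comparison with DMSO, and the calls given here are from the paired fit, in which 7.04% of all genes rose and 6.46% fell in UNC. Of the 19, 1 rose in UNC, OIP5-AS1, and 18 were not called, with 19 not called in PROTAC. Such a share is near that of all genes, as are those of the next list. THAP9-AS1 was at 0.08 (adjusted p = 0.443), EPB41L4A-AS1 at 0.08 (adjusted p = 0.455) and FGD5-AS1 at -0.02 (adjusted p = 0.839) in UNC. Of 29 listed noncoding RNAs named for developmental regulators, nearly all antisense, 12 were tested and 3 reached 5 CPM, HOXB-AS1, PAX8-AS1 (paired -0.10 in UNC, adjusted p = 0.353) and FOXD3-AS1 (-0.03, adjusted p = 0.821), both named for developmental transcription factors. Over the 12, HOXB-AS1 rose and FOXD2-AS1 fell in UNC (-0.87, adjusted p = 0.0240, from 1.02 to 0.526 CPM), and 0 were called in PROTAC. Of the imprinted antisense RNAs 3 were tested with 0 calls, among them GNAS-AS1 at 15.7 ± 4.61, 12.6 ± 1.83 and 14.1 ± 4.79 CPM. Of 17 listed genes of chromatin and DNA methylation, 4 rose in UNC in the paired fit, EZH2 (0.24), HDAC2 (0.22), KDM5B (0.17) and KDM4A (0.16), and NSD1 fell (-0.15), with 0 called in PROTAC. HDAC2, KMT2E and ASH1L have antisense RNAs among the 101, and KMT2E-AS1 was at 0.02 (adjusted p = 0.941) and ASH1L-AS1 at -0.08 (adjusted p = 0.661) in UNC.

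The median coefficient of variation of the 101 within a group was 13.2% in DMSO, 10.8% in PROTAC and 14.3% in UNC, beside 6.82%, 7.32% and 8.22% for all tested genes at 5 CPM or more, which include far more abundant ones; genes matched on level were not compared. Library number 1 was the highest of its group for 68, 50 and 70 of the 101, and in all 3 groups for 38. STX18-AS1 had 26.3, 22.6 and 31.3 CPM in libraries numbered 1 and between 12.9 and 16.6 CPM in the other 6, a mean 1.78 times higher. GNAS-AS1 was 1.54 times higher in number 1, and SNAI3-AS1 was the reverse at 0.781. Whether a number marks the same run of the experiment in each group is not given in the labels.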

How the data were processed

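RNA-seq counts per gene for 9 libraries were used as the authors deposited them: the submitters' processing notes name Trim Galore 0.6.10, HISAT2 2.2.1 and the build GRCh38. How reads were counted, with which annotation and strand setting, is not given in the sources used here. Ribosomal RNA was depleted per the labels' protocols, while the molecule label reads polyA RNA.

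Members and gene lists were chosen with earlier results of these data known. Counts were tested with edgeR 4.0.16 (TMM, filterByExpr, quasi-likelihood, robust) in R 4.3.3 over 24187 of 56312 entries, with Benjamini-Hochberg adjustment and a threshold of 0.05. The design held group alone; the paired fit added the replicate number as a block. The labels do not say that a number marks the same run, but every one of 9 same-number pairs of libraries correlated in its deviations from the group means (0.11 to 0.47, beside -0.32 to 0.08 for 18 pairs of different number), so the block is given beside the results it changes. Whether libraries of a group are separate cultures follows from the series' mention of independent runs alone.

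Ratios were log2 of antisense over sense counts, each plus 0.5, tested with limma 3.58.1 over 716 pairs. DESeq2 1.42.0, library-size scaling, other filters, left-out libraries and other membership rules were alternatives. The edgeR and limma fits were tested on simulated data. Exons came from GENCODE 29 by gene ID (99 of 101 matched) and promoters from RefSeq. Values after ± are SDs over the 3 libraries of a group. Standard errors of fold changes were derived from the edgeR test, whose spread was estimated over all 9 libraries. In the paired fit they leave out differences between replicate numbers.

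Named were the 8 highest in DMSO, up to 8 largest paired rises and falls per comparison, up to 8 called ratios, the 3 members and 3 other entries nearest the threshold, up to 4 members of each list, and their sense genes. Others named in the text, such as STX18-AS1 and the remaining called sense genes, were chosen after their values were seen.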

Additional observations from a re-analysis of the deposited data

How the results depend on the processing

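With the replicate number as a block, calls against DMSO went from 0 to 5 lower in PROTAC, and to 3 higher and 12 lower in UNC. For the other settings below, shares of all genes called are not given, so these counts cannot be set against them. With library-size scaling the paired counts were 7 lower in PROTAC and 2 higher and 15 lower in UNC. Paired DESeq2 gave 1 higher and 5 lower in PROTAC and 4 higher and 8 lower in UNC. Without the block, DESeq2 gave 1 lower in PROTAC and 3 lower in UNC, and edgeR without an expression filter gave 1 and 3. Leaving out 1 number in the paired fit gave 2 to 3 lower in PROTAC, 0 to 4 higher and 4 to 11 lower in UNC, and up to 3 higher and 1 lower in PROTAC against UNC. With members chosen in the paired fit by all 9 libraries, by the 6 treated libraries, at 10 CPM or at 2 CPM, PROTAC had 5, 5, 3 and 6 lower, and UNC had 4, 4, 3 and 6 higher and 12, 11, 6 and 18 lower. PROTAC against UNC then had 1, 1, 0 and 2 lower, and 1 higher at 2 CPM.

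For called count ratios, the block gave 3 in UNC and 1 in PROTAC against UNC. An added count of 5 gave 1 in UNC, and in the paired fit 4 in UNC, 1 in PROTAC and 1 in PROTAC against UNC. Without UNC replicate 1 there was 1 in UNC. Paired, leaving out 1 number gave 1 to 4 in UNC, 0 to 2 in PROTAC and 0 to 2 between the compounds. The cause of these differences was not tested. Values of single genes under alternatives were set against the fit by group alone, in which none of these genes passed. Of these values 298 kept their direction and did not pass either, 110 passed, and 0 reversed. The calls of the paired fit were thus missed under most alternatives. The lowest count of 112 limits the weakest members, and 3 libraries a group limit every comparison.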
